A study of Homo sapiens with 8 samples.

Results

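The transcripts of 10 genes that sense cytosolic DNA or carry out inflammasome signaling and pyroptosis were examined in intestinal epithelial cells differentiated from the H9 human embryonic stem cell line (2D hIECs). The genes were selected by name as *IFI16*, *AIM2*, *NLRP3*, *NLRP1*, *PYCARD*, *CASP1*, *CASP4*, *CASP5*, *GSDMD* and *IL1B*, and all 10 were found among the 60558 genes of every library. RNA-seq had been carried out on 8 libraries, with 2 in each of 4 groups. Normal hIECs received neither agent, and normal hIECs with PM10 were exposed to the particulate matter at 100 μg/ml for the last 7 days of culture. Inflamed hIECs were cultured for 10 days with the cytokines IFNγ (50 ng/ml) and TNFα (50 ng/ml), and inflamed hIECs with PM10 received both the cytokines and the particles. Doses and days are those of the study's methods, and the sample labels give a treatment of 10 days for all 8 libraries. All 4 groups came from 1 cell line. The sources used here do not say whether the 2 libraries of a group came from separate cultures, so the p-values measure the spread between these libraries, which may be technical.

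An inflammasome is assembled when a sensor protein meets its trigger. AIM2 binds double-stranded DNA in the cytosol, IFI16 is a related sensor of DNA in the nucleus and cytosol, and NLRP3 and NLRP1 respond to other forms of cell damage or infection. The sensor recruits the adaptor ASC, which is encoded by *PYCARD*, and ASC gathers caspase-1. Active caspase-1 cleaves the interleukin-1β precursor and gasdermin D, whose amino-terminal part forms pores in the plasma membrane. Caspase-4 and caspase-5 bind bacterial lipopolysaccharide directly and also cleave gasdermin D. In the intestine, this machinery is known for the defence of the epithelium against invading bacteria and for the extrusion of infected cells.

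Values were FPKM, that is, mapped fragments scaled by the length of the transcript and the size of the library, which can be compared between genes. The lowest value above 0 was 0.164 to 0.228 FPKM among the libraries and was shared by 27 to 43 genes in each, and this smallest step was read as an average coverage of 1 read per base. On that scale, 1 FPKM stood for an average coverage of 4.38 to 6.11. The cytokine labels held for the response genes *IRF1*, *CXCL10*, *GBP1*, *NFKBIA* and *TNFAIP3*, which rose in both cytokine comparisons, with *IRF1* at 3.09 to 5.61 FPKM in the 4 libraries without cytokines and 74.5 to 81.3 FPKM in the 4 with them. In these values the epithelial label was met only in part. The study itself reported *CDX2*, *SOX9*, *LYZ*, *MUC2*, *CHGA* and *VIL1* in 2D hIECs by qPCR and immunostaining, and *LGR5* by qPCR. Of 14 intestinal epithelial markers, 8 (*KRT20*, *VIL1*, *CDX2*, *MUC2*, *LYZ*, *CHGA*, *FABP2* and *SI*) were listed at 0 in all 8 libraries and *CDH1* in 7, whereas all 9 mesenchymal markers were expressed. The summed mesenchymal markers stood at 4104 to 4106 FPKM in normal hIECs, 3617 to 3650 with PM10, 4700 to 4758 in inflamed hIECs and 4172 to 4186 in inflamed hIECs with PM10. Single mesenchymal markers went both ways with cytokines. Without PM10, 4 of the 9 rose and 4 fell (limma), beside 25.9% and 30.3% of all genes tested. With PM10, 4 rose and 5 fell, beside 25.8% and 39.6%. The summed epithelial markers, mostly *KRT8* and *KRT18*, stood at 657 to 665, 614 to 650, 355 to 360 and 297 to 316 FPKM in the same order. For myeloid cells, in which these genes are best known, 6 of 11 markers (*CD14*, *ITGAM*, *CSF1R*, *CD163*, *TYROBP* and *SPI1*) were at 0 in all libraries. The sum of the 11 was 4.76 to 4.89, 1.74 to 2.49, 3.99 to 4.88 and 4.61 to 4.99 FPKM. Within it, single markers went both ways. *FCER1G* was at 0.785 to 1.17 FPKM without cytokines and 3.16 to 3.67 FPKM with them. *AIF1* was at 0.706 to 2.84 FPKM without cytokines and 0 to 0.463 FPKM with them, and *PTPRC* at 0.253 to 0.524 and 0 FPKM. *CD68* was highest in inflamed hIECs with PM10, at 1.11 and 1.83 FPKM. Of 6 lymphocyte and 5 endothelial markers, 5 and 4 were at 0 throughout, and the sums did not exceed 0.237 and 0.486 FPKM. The part of these markers in the results was not tested. In bulk RNA, a change in the number of cells that express a gene and a change in the RNA per cell cannot be told apart.

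IFNγ and TNFα co-treatment was followed by higher transcript levels of the sensors *AIM2* and *IFI16*, of *CASP1* and *CASP4*, and of *GSDMD*. In inflamed against normal hIECs, 5 of the 10 genes rose and 0 fell (limma, Benjamini-Hochberg adjusted over 14206 genes). Of all genes tested, 25.9% rose and 30.3% fell in this comparison. Of the 10 genes, 6 reached the minimum of 1 FPKM in at least 2 libraries and were tested. *AIM2* and *CASP1* reached it only in the libraries with cytokines, so they had to differ, and the count is a description of the genes. In the presence of PM10, 5 of the 10 genes were called higher with cytokines and 0 lower, beside 25.8% and 39.6% of all genes. The set was not the same, since *PYCARD* was called here and *IFI16* was not. Quantile normalization changed the split of all genes in that comparison from 3661 higher and 5625 lower to 4399 higher and 4752 lower.

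**Figure D1:**
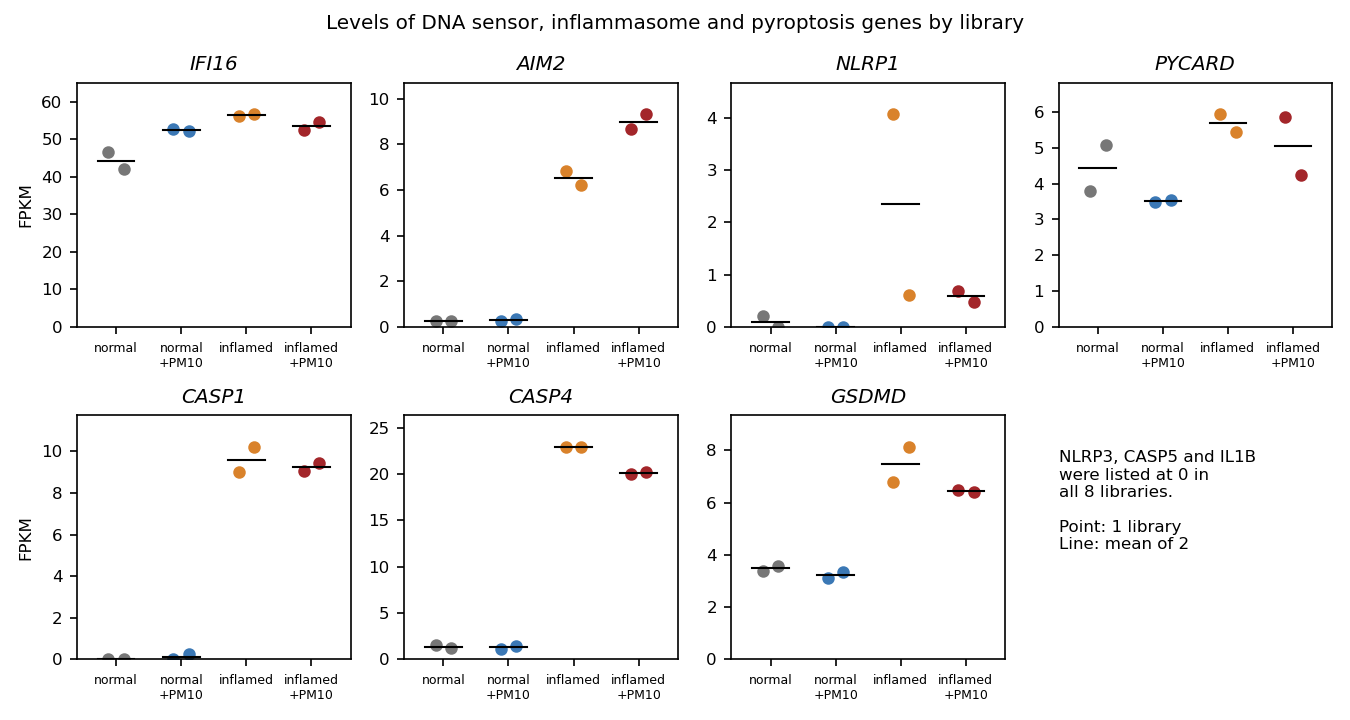
Transcript level in FPKM (linear axis from 0, a different range in each panel) of the 7 genes that were above 0 in at least 1 library, for the 4 groups. Each point is 1 library and each line the mean of 2. *AIM2*, *CASP1* and *CASP4* were near 0 in the libraries without cytokines and at 6.20 FPKM or higher in all 4 with them, whereas *IFI16* differed little in proportion.

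*IFI16* was the most abundant of the genes in every library. It lies on the plus strand of chromosome 1 from 158999968 to 159055155 (GRCh38, GENCODE release 44, as for all positions here), and 8.03% of its exon bases lie under *PYDC5* on the opposite strand. Its level was 46.5 and 42.2 FPKM in normal hIECs, 52.7 and 52.3 in normal hIECs with PM10, 56.2 and 56.7 in inflamed hIECs, and 52.5 and 54.6 in inflamed hIECs with PM10. The normal hIECs without PM10 were therefore the lowest pair, and the other 6 libraries lay between 52.3 and 56.7 FPKM. The cytokines raised *IFI16* by 0.34 ± 0.057 (SE) on the log2(FPKM + 1) scale in the absence of PM10 (limma, adjusted p = 0.00167), which was a ratio of 1.27 between the group means. With PM10 in both groups the difference was 0.028 ± 0.057 and did not pass the test (limma, adjusted p = 0.683). Whether the 2 cytokine effects differed is the question of the interaction, given with the PM10 comparisons.

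*AIM2*, the neighbour of *IFI16* at a distance of 6443 bases on the minus strand (159061599 to 159187843), behaved differently. It was at 0.257 and 0.250 FPKM in normal hIECs and 0.277 and 0.355 in normal hIECs with PM10, which is a mean depth of 1.17 to 1.77. It was at 6.84 and 6.20 FPKM in inflamed hIECs and 8.66 and 9.31 in inflamed hIECs with PM10, a mean depth of 29.4 to 43.9. The groups with and without cytokines did not overlap, and the ratio of the group means was 25.7 without PM10 and 28.4 with it. On the log2(FPKM + 1) scale, which understates the change of low genes, these differences were 2.58 ± 0.083 and 2.92 ± 0.083 (limma, adjusted p = 4.64e-07 and 1.79e-07). Because *AIM2* reached the minimum for the test only with cytokines, it had to differ, and these p-values are no independent support.

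The NLR sensors were scarce. *NLRP3* (chromosome 1, 247416156 to 247449108) was listed at 0 in all 8 libraries. In the annotation, 66.0% of its exon bases are shared on the same strand with ENSG00000289728, a gene without a value here. *NLRP1* (chromosome 17, 5499415 to 5619424, minus strand) stayed under the minimum for the test. It was at 0.205 and 0 FPKM in normal hIECs, 0 in both libraries of normal hIECs with PM10, 4.06 and 0.619 in inflamed hIECs, and 0.695 and 0.481 in inflamed hIECs with PM10. All 4 libraries with cytokines were thus above the 4 without, and 1 library, inflamed hIECs replicate 1, was far above the rest. The mean difference between the 4 libraries with and the 4 without cytokines was 1.02 on the log2(FPKM + 1) scale (exact two-sided permutation test, p = 0.0286, the smallest p that 70 regroupings allow). It was 0.61 without that library, where the exact permutation p was 0.0571, again the smallest possible. A comparison of 2 against 2 libraries can reach no exact p below 0.333.

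Reads of *NLRP1* may be shared with another gene. On the same strand, 1500 of its exon bases (7.44%) overlap AC055839.2 (ENSG00000286190), which was far more abundant. AC055839.2 was at 91.2 and 85.5 FPKM in normal hIECs, 70.7 and 68.1 in normal hIECs with PM10, 33.6 and 47.6 in inflamed hIECs, and 41.1 and 38.8 in inflamed hIECs with PM10. Its lowest value came from the library in which *NLRP1* was highest. The part that the assignment of shared reads played in the *NLRP1* values was not tested.

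**Figure D2:**
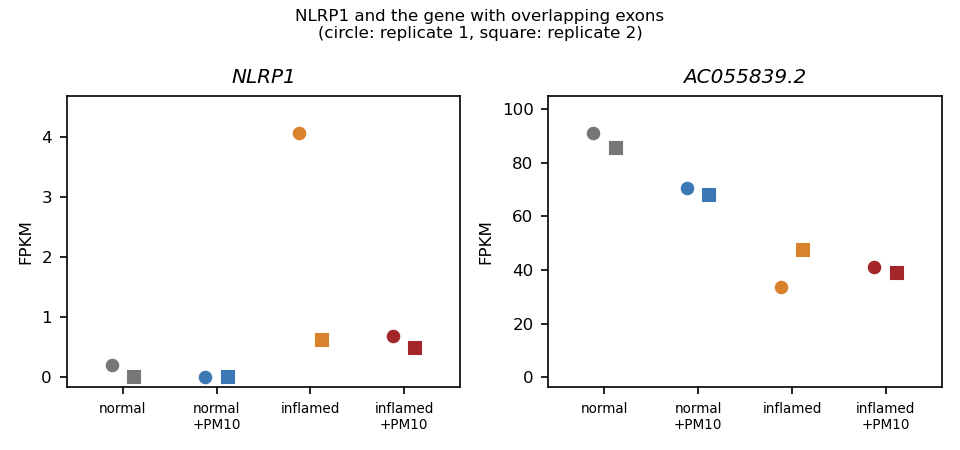
Levels in FPKM (linear axes, different ranges) of *NLRP1* (left) and of AC055839.2, whose exons overlap it (right), in the 4 groups. Circles are replicate 1 and squares replicate 2; the library of inflamed hIECs with 4.06 FPKM of *NLRP1* had the lowest AC055839.2, at 33.6 FPKM.

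The adaptor gene *PYCARD* (chromosome 16, 31201486 to 31203450, minus strand) was expressed in all libraries and moved little. Its level was 3.79 and 5.08 FPKM in normal hIECs, 3.49 and 3.55 in normal hIECs with PM10, 5.93 and 5.43 in inflamed hIECs, and 5.86 and 4.24 in inflamed hIECs with PM10. The libraries with and without cytokines overlapped only through normal hIECs replicate 2 and inflamed hIECs with PM10 replicate 2. The cytokine difference was 0.31 ± 0.15 without PM10 (limma, adjusted p = 0.118) and 0.41 ± 0.15 with PM10 (limma, adjusted p = 0.0443). The second value passed the threshold narrowly and ranged in adjusted p from 0.0143 to 0.258 over 16 alternatives. Leaving out either library of inflamed hIECs, either library of normal hIECs with PM10, or inflamed hIECs with PM10 replicate 1 ended that call. *PYCARD-AS1*, which lies on the opposite strand over 59.7% of the *PYCARD* exon bases, was listed at 0, although the libraries were not strand-specific.

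*CASP1*, *CASP4* and *CASP5* lie side by side on the minus strand of chromosome 11, and their levels fell into separate classes. *CASP1* (105025397 to 105035250) was listed at 0 in both libraries of normal hIECs and at 0 and 0.255 FPKM in normal hIECs with PM10. It was at 8.99 and 10.2 FPKM in inflamed hIECs and at 9.06 and 9.43 in inflamed hIECs with PM10. The gene was thus present at 9.60 ± 0.86 and 9.24 ± 0.27 FPKM (SD, n = 2) with cytokines, and its exons overlap no other annotated gene. Both cytokine comparisons passed the test (limma, adjusted p = 6.61e-07 without PM10 and 6.31e-07 with it). As with *AIM2*, the gene reached the minimum only with cytokines and had to differ. No fold change is given because the reference group was listed at 0 or held a single value near a depth of 1.

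*CASP4* (104942866 to 104969366) was the second most abundant of the 10 genes with cytokines. It was at 1.54 and 1.24 FPKM in normal hIECs, 1.10 and 1.47 in normal hIECs with PM10, 22.9 in both libraries of inflamed hIECs, and 20.02 and 20.27 in inflamed hIECs with PM10. Unlike *AIM2* and *CASP1*, it exceeded 1 FPKM in every library. The cytokine difference was 3.33 ± 0.095 without PM10 and 3.21 ± 0.095 with it (limma, adjusted p = 2.56e-07 and 2.27e-07), at ratios of 16.5 and 15.6 between the group means. *CASP5* (104994235 to 105023168), which is 24868 bases from *CASP4* and 2228 bases from *CASP1*, was listed at 0 in all 8 libraries. No stretch of 100 bases was shared between the annotated transcripts of *CASP1*, *CASP4* and *CASP5*. *CARD16*, which encodes a protein similar to the recruitment domain of caspase-1 and lies 6075 bases from *CASP1*, shared 52 of its 1665 such stretches with *CASP1*, so a small part of their reads could be exchanged.

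The sequence before the start of the caspase genes is shown because the windows of *CASP4*, which rose, and *CASP5*, which was at 0, were the most alike, and that of *AIM2* because the gene rose with them. RefSeq promoter windows on GRCh38.p14 (250 bases before the start) were given for 7 of the 10 genes, and *CASP1*, *GSDMD* and *NLRP1* were not among them. The start here is that of a RefSeq transcript, which can differ from the end of the GENCODE gene. The windows of *AIM2*, *IFI16*, *PYCARD* and *CASP4* lie inside the gene positions given above. The aligned windows of *CASP4* and *CASP5* were identical at 181 of 250 bases (72.4%), whereas the other 26 pairs among the windows ranged from 50.8% to 60.8%. Both strands were searched for the gamma-activated site (TTCNNNGAA), the interferon-stimulated response element (GAAA, any 2 bases, GAAA) and an NF-κB site (GGGA, any base, TTTCC), which 6.57%, 3.02% and 0.527% of 35116 windows hold. In *CASP5*, overlapping response elements began 250 and 244 bases before the start and a gamma-activated site 100 bases before it. The *AIM2* window held 1 response element 190 bases before the start, and the *IL1B* window 1 gamma-activated site 180 bases before it. The windows of *CASP4*, *IFI16*, *NLRP3* and *PYCARD* held none of these letters. Annotated exons cover all 250 bases of the *PYCARD* window, 154 of the *CASP4* window, 17 of the *NLRP3* window and 0 or 15 of the *IFI16* windows. The lack of a match there is therefore not a statement about sequence upstream of the whole gene. The windows of *AIM2* (chr1:159076767-159077016) and *CASP5* (chr11:105023169-105023418) and the outer stretch of the *CASP4* window that lies outside its exons (chr11:104968729-104968824) are given on the minus strand, 5′ to 3′, with motif matches in capitals.
AIM2: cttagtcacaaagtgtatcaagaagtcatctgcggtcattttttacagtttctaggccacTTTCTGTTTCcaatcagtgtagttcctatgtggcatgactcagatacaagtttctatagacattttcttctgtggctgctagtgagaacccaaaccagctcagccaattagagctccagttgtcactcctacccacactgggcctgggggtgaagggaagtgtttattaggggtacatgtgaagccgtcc
CASP5: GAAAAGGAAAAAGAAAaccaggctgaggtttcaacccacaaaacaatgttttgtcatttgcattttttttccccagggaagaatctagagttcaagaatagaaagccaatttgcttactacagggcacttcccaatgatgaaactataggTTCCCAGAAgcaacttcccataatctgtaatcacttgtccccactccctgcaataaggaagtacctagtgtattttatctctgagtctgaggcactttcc
CASP4: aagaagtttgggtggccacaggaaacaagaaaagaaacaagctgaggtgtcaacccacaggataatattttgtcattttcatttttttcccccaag
The response elements of *CASP5* are the first capitals of its window and the gamma-activated site the last. Of these 3 genes, *AIM2* and *CASP4* rose with cytokines and *CASP5* was at 0. A match of letters is no proof of a bound site.

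The genes whose pattern over the 8 libraries was most like that of *CASP1* were interferon-response genes and its neighbour *CASP4*. Likeness was measured as the root mean square difference of centred log2(FPKM + 1) values, over 14205 other genes. *EPSTI1* was closest (0.0952), followed by *MX1* (0.0961), *CASP4* (0.116), *GBP1* (0.139) and *SAMD9L* (0.141). Their levels were not alike, since *GBP1* was at 235 to 253 FPKM with cytokines and *SAMD9L* at 11.8 to 13.5 FPKM. No such genes can be given for *IL1B*, which was at 0 throughout.

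Of the caspase substrates among the 10 genes, *GSDMD* was detected and *IL1B* was not. *GSDMD* (chromosome 8, 143553207 to 143563062, plus strand) was at 3.37 and 3.59 FPKM in normal hIECs, 3.11 and 3.33 in normal hIECs with PM10, 6.80 and 8.13 in inflamed hIECs, and 6.49 and 6.39 in inflamed hIECs with PM10. Every library with cytokines was above every library without, and only 2.67% of its exon bases lie under another gene, on the opposite strand. The cytokine difference was 0.91 ± 0.087 without PM10 and 0.82 ± 0.087 with it (limma, adjusted p = 0.000101 and 0.000131), at ratios of 2.15 and 2.00 between the group means. *IL1B* (chromosome 2, 112829751 to 112836816) was listed at 0 in all 8 libraries. By qPCR, the study reported higher *IL1B* in inflamed than in normal hIECs and an increase in inflamed hIECs with PM10. The values at 0 therefore do not mean that the transcript was absent from the model. A value of 0 was read here as a gene that did not reach the lowest level the files hold, and other reasons for a 0 were not tested. Of the 60558 genes listed, 21400 were above 0 in at least 1 library. Among 76 ribosomal protein genes, 2 were at 0 in all libraries and 0 in some libraries only. Ribosomal protein genes are abundant, so this check cannot show how weakly expressed genes are listed.

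In inflamed hIECs, the mean levels ran from *IFI16* over *CASP4*, *CASP1*, *GSDMD* and *AIM2* to *PYCARD* and *NLRP1*. *IFI16* and *CASP4* were the highest in all 4 libraries with cytokines, apart from each other and from the rest. The ranges of *GSDMD* and *AIM2* overlapped (6.80 to 8.13 against 6.20 to 6.84 FPKM), so their order was not resolved. In inflamed hIECs with PM10 *AIM2* was above *GSDMD* in both libraries, and its range met that of *CASP1* (8.66 to 9.31 against 9.06 to 9.43 FPKM). Without cytokines, *IFI16* was followed by *PYCARD*, which was above *GSDMD* by a small margin in both groups (3.79 to 5.08 against 3.37 to 3.59 FPKM in normal hIECs), and then by *CASP4*.

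PM10 was followed by few changes in these genes. In normal hIECs, 1 of the 10 genes rose with PM10 and 0 fell (limma), while 5.51% of all genes tested rose and 3.72% fell. The gene was *IFI16*, which was higher in 4 of 4 pairs of libraries by 0.24 ± 0.057 on the log2(FPKM + 1) scale, a ratio of 1.18 between the means (limma, adjusted p = 0.0449). This call was narrow. It was lost (adjusted p up to 0.179) when any library other than normal hIECs replicate 1 was left out. Normal hIECs replicate 2, with the lowest *IFI16*, had the highest share of FPKM in mitochondrial genes, at 24.2% against 15.5% to 20.4% in the other 7 libraries. Without it the difference was 0.17 (limma, adjusted p = 0.0850), and the part of that share was not tested. The split of all genes in this comparison also depended on the scaling, at 783 higher and 528 lower as deposited, 563 and 749 after median centring, and 628 and 633 after quantile normalization.

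In inflamed hIECs the gene that changed with PM10 was *AIM2*. Here, 1 of the 10 genes rose and 0 fell, beside 6.22% and 9.02% of all genes, and after quantile normalization 1136 genes were higher and 1102 lower in place of 883 and 1282. *AIM2* increased from 6.52 ± 0.46 to 8.98 ± 0.46 FPKM (SD, n = 2), or by 0.41 ± 0.083 on the log2(FPKM + 1) scale (limma, adjusted p = 0.0186), and the 2 groups did not overlap. Leaving out any 1 of the 4 libraries compared ended the call (adjusted p up to 0.116). In normal hIECs the *AIM2* difference was 0.070 ± 0.083 (limma, adjusted p = 0.614), at levels near a depth of 1. *CASP4* was lower with PM10 in inflamed hIECs in 4 of 4 pairs, at 20.1 ± 0.18 against 22.9 ± 0.023 FPKM, and the difference of -0.18 ± 0.095 did not pass the test (limma, adjusted p = 0.241), although a fit of those 2 groups alone did (limma, adjusted p = 0.0377). For *GSDMD* the difference was -0.18 ± 0.087 (limma, adjusted p = 0.197), for *PYCARD* -0.15 ± 0.15 (0.518), for *IFI16* -0.075 ± 0.057 (0.401) and for *CASP1* -0.047 ± 0.12 (0.816).

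The difference between the PM10 effects in inflamed and in normal hIECs was tested as an interaction, and 0 of the 10 genes passed in either direction (limma), beside 2.11% of all genes higher and 4.48% lower. Before adjustment, 2 of the 6 tested genes had a p under 0.05. For *IFI16* the difference was -0.31 ± 0.080 (limma, adjusted p = 0.0633). Libraries with PM10 were higher in 4 of 4 pairs in normal hIECs and in 0 of 4 in inflamed hIECs. For *AIM2* it was 0.34 ± 0.12 (limma, adjusted p = 0.136), and its size depended on the scale. The ratio of *AIM2* means with PM10 was 1.25 in normal and 1.38 in inflamed hIECs. At a pseudocount of 0.1 the 2 PM10 differences of *AIM2* were 0.23 and 0.46. The *IFI16* difference passed after median centring (limma, adjusted p = 0.0491), after quantile normalization (0.0451), at a minimum of 5 FPKM (0.0494) and without normal hIECs replicate 1 (0.0176). All genes tested split into 300 higher and 637 lower in this comparison, and into 453 and 539 after median centring.

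**Figure D3:**
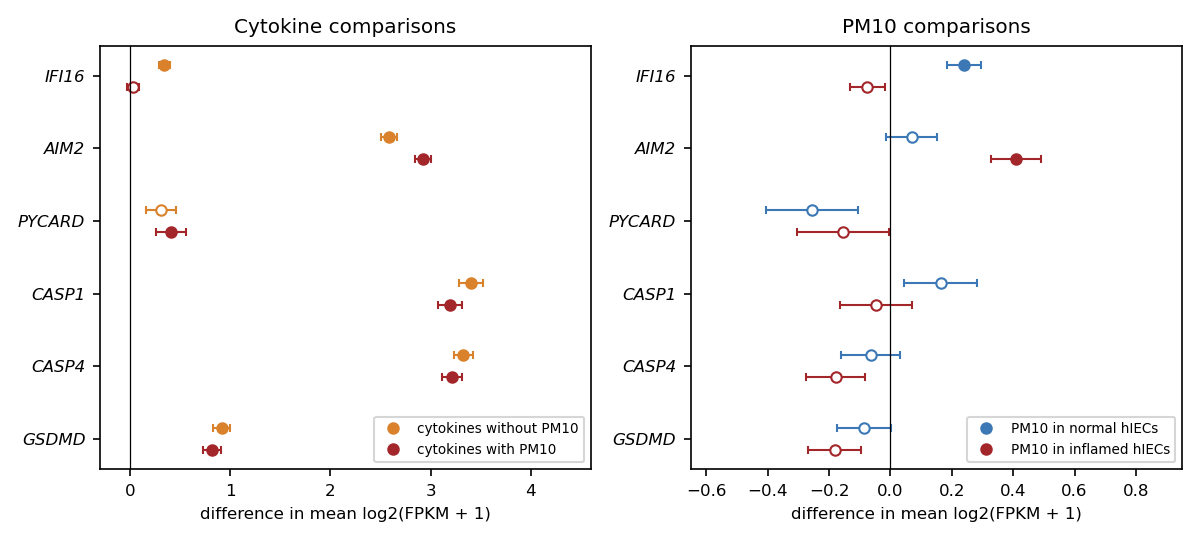
Differences in mean log2(FPKM + 1) of the 6 genes tested, for the cytokine comparisons (left) and the PM10 comparisons (right). Points are limma estimates from 2 libraries a group, bars are ± 1 SE, and filled points passed an adjusted p of 0.05. The cytokine differences of *AIM2*, *CASP1* and *CASP4* exceeded 2.5, whereas the PM10 differences stayed within 0.41 of 0; *CASP1* was listed at 0 in normal hIECs, so its values are no fold changes.

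Other genes of the pathway were described from 5 lists. Of 13 other inflammasome sensors and related genes, 9 were at 0 in all libraries, among them *NLRC4*, *MEFV* and *PYHIN1*, and 2 were tested. *CARD8*, a sensor kept in check by dipeptidyl peptidases, and *NOD1*, a receptor of bacterial peptidoglycan, both fell with cytokines in the presence of PM10, by 0.49 ± 0.13 and 0.36 ± 0.097 on the log2(FPKM + 1) scale (limma, adjusted p = 0.0134 and 0.0123). Neither passed in any of the other comparisons. The list thus counted 0 higher and 0 lower without PM10, and 0 higher and 2 lower with PM10, where 39.6% of all genes were lower.

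Of 10 genes of cytosolic nucleic acid sensing, 6 were tested. With cytokines, 2 rose and 2 fell without PM10 (25.9% and 30.3% of all genes), and 3 rose and 2 fell with it (25.8% and 39.6% of all genes). Without PM10 the counts are near these shares, whereas with PM10 the 3 of 6 that rose are above theirs. On 6 genes the counts are a description. *SAMHD1*, which degrades deoxynucleotides and restricts DNA synthesis by viruses, was at 5.08 and 4.37 FPKM in normal hIECs and 20.6 and 20.9 FPKM in inflamed hIECs, a difference of 1.93 ± 0.072 (limma, adjusted p = 9.07e-07). PM10 on normal hIECs raised it too, by 0.41 ± 0.072 (limma, adjusted p = 0.0194). It was the 1 gene of the list called in that comparison, beside 5.51% of all genes higher and 3.72% lower. *TBK1*, the kinase downstream of STING, rose by 0.40 ± 0.075 with cytokines in the presence of PM10 (limma, adjusted p = 0.00225). The nucleic acid sensors *DDX41* and *LRRFIP1* fell there by 0.60 ± 0.090 and 0.52 ± 0.069 (limma, adjusted p = 0.000767 and 0.000415). Without PM10 these genes passed too, in the same order at 0.38 ± 0.075, -0.29 ± 0.090 and -0.29 ± 0.069 (limma, adjusted p = 0.00391, 0.0276 and 0.00895). *CGAS*, the DNA sensor that signals through STING, was at 0 without cytokines and at 0.586 to 0.729 FPKM with them, under the minimum.

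Of 16 regulators of inflammasomes, 9 were tested, and 7 rose and 0 fell with cytokines without PM10 (25.9% and 30.3% of all genes). The median difference was 0.41 against -0.028 over all genes tested. With PM10, 5 rose and 1 fell (25.8% and 39.6% of all genes). *NEK7*, a kinase that NLRP3 needs to assemble, was at 18.5 and 15.7 FPKM in normal hIECs and 35.9 and 34.4 FPKM in inflamed hIECs. It rose with cytokines by 1.00 ± 0.077 without PM10 and 1.28 ± 0.077 with it (limma, adjusted p = 3.42e-05 and 6.82e-06). The channel gene *PANX1* rose by 0.87 ± 0.099 without PM10, and *SUGT1*, a co-chaperone of NLR proteins, by 0.67 ± 0.13 with it (limma, adjusted p = 0.000248 and 0.00305). Each also passed in the other cytokine comparison, *PANX1* at 0.84 ± 0.099 and *SUGT1* at 0.54 ± 0.13 (limma, adjusted p = 0.000223 and 0.0105). *CARD16* was at 0 in the 4 libraries without cytokines, at 6.85 and 6.63 FPKM in inflamed hIECs and at 5.87 and 4.62 FPKM in inflamed hIECs with PM10. Like *AIM2* and *CASP1* it reached the minimum only with cytokines and had to differ, and it shares sequence with *CASP1*. *TXNIP*, a binding partner of thioredoxin, was raised 0.30 ± 0.062 by PM10 when normal hIECs were exposed (limma, adjusted p = 0.0301).

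Of 11 other gasdermin and effector genes, 7 were tested, of which 3 rose and 1 fell with cytokines without PM10, and 3 rose and 2 fell with it, beside the same shares of all genes (25.9% and 30.3%, then 25.8% and 39.6%). *CASP8*, the initiator caspase of death receptors, rose from 3.07 and 2.79 to 9.10 and 8.34 FPKM, by 1.31 ± 0.080 (limma, adjusted p = 1.1e-05). *GSDME*, the gasdermin cleaved by caspase-3, rose with cytokines by 0.54 ± 0.082 without PM10 and 0.82 ± 0.082 with it (limma, adjusted p = 0.00102 and 9.08e-05). *GSDMB* and *PJVK* fell by 1.24 ± 0.29 and 1.12 ± 0.11 with cytokines in the presence of PM10 (limma, adjusted p = 0.00684 and 8.3e-05). Without PM10, *PJVK* passed too, at -0.49 ± 0.11 (limma, adjusted p = 0.0066), and *GSDMB* did not, at -0.50 ± 0.29 (0.179). With PM10 in inflamed hIECs, 1 gene of the list rose and 1 fell, beside 6.22% and 9.02% of all genes. *GSDME* went from 10.1 and 9.71 to 13.6 and 12.2 FPKM, by 0.35 ± 0.082 (limma, adjusted p = 0.0305). *PJVK* went from 1.13 and 1.12 to 0.450 and 0.232 FPKM, by -0.67 ± 0.11 (limma, adjusted p = 0.00884). The lowest value above 0 in the libraries of inflamed hIECs with PM10 was 0.211 and 0.212 FPKM, so *PJVK* was near the floor there.

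In the IL-1 family, 13 of 19 genes were at 0 in all libraries, including *IL1A*, *IL33* and *IL1RN*. The 6 tested were mostly receptors and inhibitors, of which 3 rose and 2 fell with cytokines without PM10 (25.9% and 30.3% of all genes), and 4 rose and 2 fell with it (25.8% and 39.6%). *IL18BP*, the secreted inhibitor of interleukin-18, rose by 1.61 ± 0.10 without PM10 and 1.25 ± 0.10 with it (limma, adjusted p = 1.46e-05 and 3.67e-05). The receptor gene *IL18R1* was at 0.533 to 0.765 FPKM without cytokines and 2.88 to 3.53 FPKM with them, so it reached the minimum only with cytokines and had to differ. *IL1RAP*, the shared receptor subunit, rose by 1.197 ± 0.065 in the presence of PM10, whereas *IL1R1*, the receptor of interleukin-1, fell by 1.18 ± 0.12 (limma, adjusted p = 4.46e-06 and 0.000105). Without PM10, *IL1RAP* and *IL1R1* passed too, at 0.88 ± 0.065 and -0.44 ± 0.12 (limma, adjusted p = 2.99e-05 and 0.0158). *IL18*, another caspase-1 substrate, was at 1.34 and 1.12 FPKM in normal hIECs and at 0.537 and 0.215 FPKM with PM10, a difference of -0.71 ± 0.13 (limma, adjusted p = 0.0224), and it reached the minimum only in libraries without PM10. *SIGIRR*, an inhibitory receptor, fell by 0.48 ± 0.091 when normal hIECs were exposed to PM10 (limma, adjusted p = 0.0233), from 16.97 and 20.1 to 12.1 and 13.8 FPKM. It also fell with PM10 in inflamed hIECs, by 0.38 ± 0.091, and with cytokines, by 1.04 ± 0.091 without PM10 and 0.94 ± 0.091 with it (limma, adjusted p = 0.0332, 6.33e-05 and 7.77e-05).

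**Figure D4:**
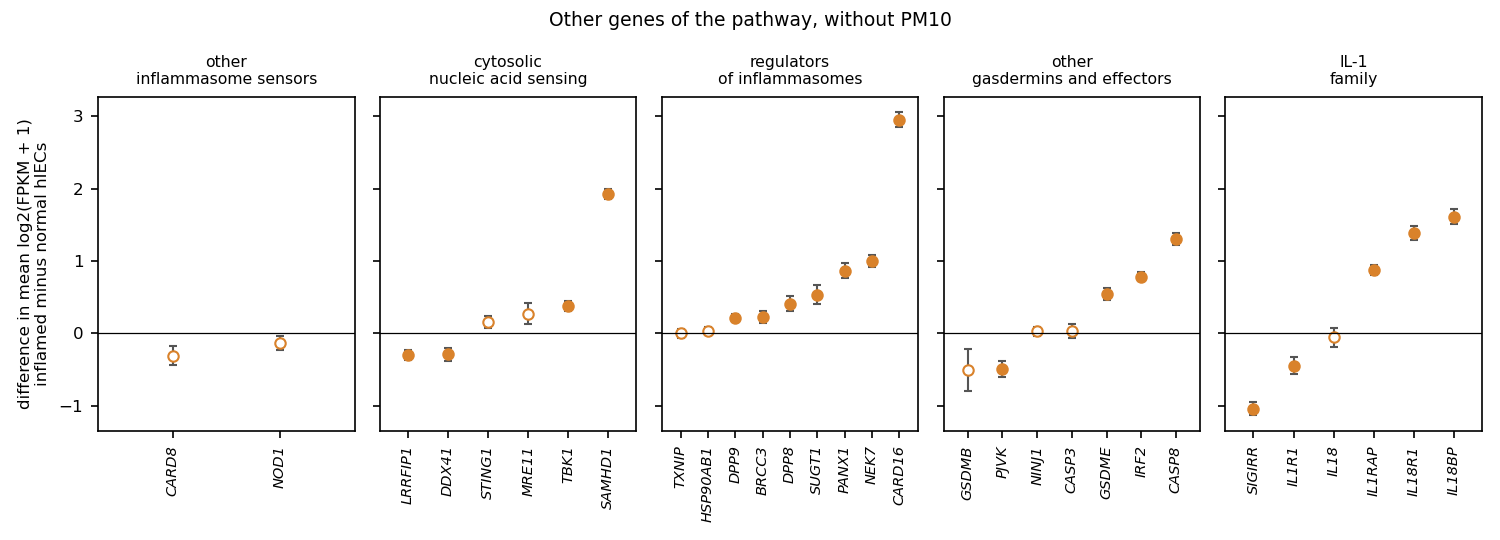
Differences in mean log2(FPKM + 1) between inflamed and normal hIECs, without PM10, of the 30 genes of the 5 other lists that were tested. Points are limma estimates from 2 libraries a group, bars are ± 1 SE, and filled points passed an adjusted p of 0.05; *CARD16*, *SAMHD1* and *IL18BP* are the highest and *SIGIRR* the lowest.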

How the data were processed

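The authors prepared poly-A selected, non-strand-specific paired-end libraries, trimmed the reads (Cutadapt among the tools named), aligned them to GRCh38 with HISAT2 and estimated expression with StringTie. They deposited 1 FPKM value per gene and library. The annotation release is not given in the sources used here. FPKM holds no read counts, so no count test was run, and the depth of a gene was read from the lowest value above 0 of its library.

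Values were compared as log2(FPKM + 1), a pseudocount of 1. Genes entered when 2 or more libraries reached 1 FPKM, which left 14206. One limma fit (version 3.58.1 in R 4.3.3, with a mean-variance trend) covered the 8 libraries, and 5 contrasts were taken from it. Each contrast had its own Benjamini-Hochberg adjustment, and an adjusted p under 0.05 counted as a call. The fit was tested on simulated data. *NLRP1*, under the minimum, was compared by an exact permutation test. No set test was run.

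The 10 genes, the other gene lists and the tests were chosen with earlier results of these data known. All 10 genes are named. From each of 5 lists of other pathway genes, up to 4 genes with the largest called difference in the cytokine comparisons and up to 2 in the PM10 comparisons are named, where every pair of libraries had the same direction. Lists of epithelial, mesenchymal, myeloid, lymphocyte and endothelial markers and 6 cytokine response genes served as checks, of which 1 is not reported here. *CGAS* was named after its values were seen. Identifiers of all 10 genes were found in GENCODE release 44. Alternatives were a pseudocount of 0.1, no filter, a minimum of 5 FPKM, median centring, quantile normalization, no trend, a replicate block, only the 2 groups compared, and each library left out.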

Additional observations from a re-analysis of the deposited data

Results flagged for a closer look

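The PM10 differences of *IFI16* pointed in opposite directions in normal and inflamed hIECs, but a difference between them did not pass the test. In normal hIECs both libraries with PM10 (52.7 and 52.3 FPKM) were above both without (46.5 and 42.2), by 0.24 on the log2(FPKM + 1) scale (limma, adjusted p = 0.0449). In inflamed hIECs both with PM10 (52.5 and 54.6) were below both without (56.2 and 56.7), by -0.075 (limma, adjusted p = 0.401, not called). The difference between the effects was -0.31 (limma, adjusted p = 0.0633). Over 15 alternatives it stayed negative, from -0.38 to -0.25, with adjusted p from 0.0176 to 0.190.

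For *IL1R1* the difference between the PM10 effects passed narrowly, at -0.74 (limma, adjusted p = 0.0485). Its levels were 4.08 and 4.13 FPKM in normal hIECs, 6.88 and 5.03 with PM10, 2.84 and 2.67 in inflamed hIECs, and 1.99 and 2.09 in inflamed hIECs with PM10. Neither PM10 effect passed on its own (0.43, adjusted p = 0.065 in normal, and -0.30, adjusted p = 0.132 in inflamed hIECs, limma). The alternatives were run for *IL1R1* after the data had been seen. The difference stayed negative in all 15, from -0.93 to -0.54, and passed in 3 of them, with adjusted p from 0.0209 to 0.143.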

How the results depend on the processing

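*AIM2* and *CASP1* reached the minimum only in the libraries with cytokines and had to differ, so their calls are a description. The cytokine calls of *AIM2*, *CASP1*, *CASP4* and *GSDMD* held in both cytokine comparisons under all 16 alternatives, and that of *IFI16* without PM10 did too. The *PYCARD* call with PM10 (adjusted p 0.0143 to 0.258) did not, and leaving out normal hIECs replicate 2 added *PYCARD* without PM10 (limma, adjusted p = 0.0492). Leaving out 1 library gave 5 to 6 genes called for cytokines without PM10 and 4 to 5 with PM10.

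For PM10 in normal hIECs, the count of 1 became 0 without a filter, without the trend, with the replicate block and with only the 2 groups, and ranged from 0 to 1 with 1 library left out. For PM10 in inflamed hIECs it became 0 at a pseudocount of 0.1 (*AIM2*, limma, adjusted p = 0.0699), 2 with only the 2 groups, and 0 to 1 with 1 library left out. For the interaction it became 1 (*IFI16*) at a minimum of 5 FPKM, after median centring and after quantile normalization, and 0 to 1 with 1 library left out. The *NLRP1* difference ranged from 0.61 to 1.198 with 1 library left out, each with an exact permutation p of 0.0571, the smallest possible, and was 3.04 at a pseudocount of 0.1. Without a filter, limma called *NLRP1* for cytokines without PM10 (adjusted p = 0.0486) and not with PM10 (0.287).

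With 1 library left out, these uncalled differences changed sign within their ranges (log2 scale). Cytokines with PM10 gave -0.00036 to 0.057 for *IFI16*. PM10 in normal hIECs gave -0.18 to 0.053 for *CASP4*. PM10 in inflamed hIECs gave -0.13 to 0.036 for *CASP1* and -0.35 to 0.040 for *PYCARD*. The interaction gave -0.094 to 0.30 for *PYCARD*, -0.23 to 0.0025 for *CASP4* and -0.21 to 0.018 for *GSDMD*. The cause was not tested.

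Replicate numbers did not pair the samples (Pearson r of deviations from the group means -0.0015 to 0.079 across genes, for 2 numbers). The replicate block left 0 genes called for PM10 in normal hIECs (*IFI16*, limma, adjusted p = 0.0614) and 4 for cytokines with PM10 (*PYCARD*, 0.0610).

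Over all genes, only the 2 groups compared left 9 genes higher and 14 lower with PM10 in normal hIECs (783 and 528 with all groups), so these background shares depend on the pooled spread. With normal hIECs replicate 1 left out they were 1876 and 751, and with normal hIECs with PM10 replicate 1 left out 82 and 112. With inflamed hIECs replicate 1 left out, PM10 in inflamed hIECs gave 237 and 438 in place of 883 and 1282, and the interaction 90 and 184 in place of 300 and 637. With 2 libraries a group and depths near 1, small changes of low genes were not detectable.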
